A study of Mus musculus with 19 samples.

Results

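The 10 genes described here, Fabp7, Ptn, Ptprz1, Nes, Vim, Slc1a3, Gpm6a, Gpm6b, Lrrn1 and Adcyap1r1, are markers of radial glia. They were picked by name from the 24016 transcripts of the deposited RNA table, with their levels in neural progenitors and stem cells already known, so the contrast between those 2 cell states chose them and is given below as a description without a test. RNA-seq (5 libraries), ChIP-seq (8) and DamID (6) make up the 19 mouse samples. In the first group, E14 embryonic stem cells (ESC) carried a lentiviral hairpin against Nup153, a protein of the nuclear pore basket, with hairpin #2 in 1 RNA library and hairpin #4 in another. In the second group, neural progenitors (NeuP) carried no hairpin and were differentiated from ESC as embryoid bodies with Noggin, then expanded with the growth factors FGF2 and EGF; their 2 RNA libraries have no cell line in the labels. The reference was 1 RNA library of E14 ESC with a non-target hairpin, shCtrl (Scramble), called control ESC here. All hairpin cells, the control included, were selected with puromycin, and ESC were grown on irradiated embryonic fibroblasts, so ESC RNA can hold feeder RNA. The DamID cells carried no hairpin and expressed Nup153, Oct4 or GFP fused to a bacterial DNA methylase, which marks the DNA that the fusion protein comes near.

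Radial glia are the elongated stem cells of the embryonic cortex, which line the ventricle, give rise to neurons and later to astrocytes, and guide migrating neurons along their fibres. They are recognised by a lipid-binding protein, a glutamate transporter and intermediate filaments that also serve astrocytes. In ESC, developmental genes of this kind are often held silent by Polycomb repressive complexes, of which Ring1B and Cbx7 are subunits, while Oct4 is a transcription factor of the pluripotent state.

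The RNA libraries held 24.3 to 32.2 M fragments, as recovered from the steps between low values of the table. Nup153 was at 20.9 and 17.4 FPKM in hairpins #2 and #4, against 39.4 FPKM in control ESC, a log2 difference of -1.01 that limma did not call (adjusted p = 0.897, Benjamini-Hochberg). NeuP expressed the radial glia factor Pax6 at 29.0 and 10.4 FPKM, against 0.186 FPKM in control ESC, and Pou5f1, which encodes Oct4, was at 1.99 and 1.65 FPKM in NeuP, against 543 FPKM in control ESC. NeuP also held Olig2, a factor of oligodendrocyte precursors, at 201 and 265 FPKM, and Gfap, an astrocyte filament, at 173 FPKM in replicate 1 and 0.563 FPKM in replicate 2. Of the 9 oligodendrocyte precursor markers, Olig1 was also high in NeuP, at 288 and 140 FPKM. Sox10 was at 0.103 and 0.228 FPKM there, against 0.16 FPKM in control ESC. Mbp was at 0.019 and 0.051 FPKM, against 2.34 FPKM. At an adjusted p under 0.05, limma called 2 of the 7 tested higher and 1 lower in NeuP. Over all genes tested it called 18.3% higher and 24.9% lower. NeuP thus also expressed some markers of other neural types. In bulk RNA fewer cells of a type and less RNA per cell cannot be told apart. Nor do the labels say whether libraries came from separate cultures, so p-values measure only the spread between these samples.

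The promoters of the 10 genes differed in how many CpG dinucleotides, the sites of DNA methylation, they held. All 10 genes matched the RefSeq promoter table (GRCm38.p6), in 11 windows running from 250 bases before the start of a gene to 50 bases after it, with 2 windows for Gpm6a. Counting a window as CpG rich at a GC content of at least 50% and an observed to expected CpG ratio of at least 0.6, 4 of the 11 windows qualified, those of Ptprz1, Nes, Gpm6b and Lrrn1, against 33.5% of all 32851 windows. The CpG count ran from 3 in Slc1a3 to 29 in Ptprz1, with a median of 11 over the 11 windows, against 7 over all windows. A CpG-rich window and CpG-poor ones are shown because the starts of these 3 genes are covered by different peak lists (below): Ptprz1 at chr6:22875252-22875551, plus strand, Fabp7 at chr10:57784673-57784972, plus strand, and Slc1a3 at chr15:8710758-8711057, minus strand. Capitals mark each CG.
Ptprz1: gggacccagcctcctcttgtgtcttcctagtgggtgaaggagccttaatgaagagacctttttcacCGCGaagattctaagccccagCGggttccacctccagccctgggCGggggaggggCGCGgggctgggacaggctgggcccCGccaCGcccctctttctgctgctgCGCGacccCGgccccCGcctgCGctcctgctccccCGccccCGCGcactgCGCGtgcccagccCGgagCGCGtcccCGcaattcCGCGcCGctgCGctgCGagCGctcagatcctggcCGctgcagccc
Fabp7: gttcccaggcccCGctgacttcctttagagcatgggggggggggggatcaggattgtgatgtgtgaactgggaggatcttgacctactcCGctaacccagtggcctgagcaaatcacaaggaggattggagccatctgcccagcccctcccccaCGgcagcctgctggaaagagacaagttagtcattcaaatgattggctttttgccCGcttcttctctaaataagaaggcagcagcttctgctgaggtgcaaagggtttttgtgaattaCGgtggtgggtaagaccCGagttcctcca
Slc1a3: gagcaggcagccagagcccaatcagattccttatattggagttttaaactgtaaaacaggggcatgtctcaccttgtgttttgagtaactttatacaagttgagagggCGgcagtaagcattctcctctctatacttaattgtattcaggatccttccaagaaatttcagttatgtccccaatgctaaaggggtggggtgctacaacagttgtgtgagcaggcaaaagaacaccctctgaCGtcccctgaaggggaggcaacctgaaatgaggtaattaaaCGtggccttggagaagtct
The Ptprz1 window held 29 CpG at a GC content of 71.7%, the Fabp7 window held 6 at 54%, and the Slc1a3 window held 3 at 45.3%. Short motifs were searched on both strands. The RBPJ motif of the Notch pathway, GTGGGAA, was in 1 of the 11 windows, against 6.38% of all windows, and the SOX motif, ACAAAG, was in 2 windows, those of Gpm6b and Lrrn1, against 18.7%. The octamer ATGCAAAT was in 1 window, of Gpm6a, against 1.74%. The TATAAA motif of the TATA box was in 3 windows, against 13.6%, and in Vim it began 32 bases before the start. The coordinates of the RNA and peak files are in mm9, and a start in the RefSeq table need not be the start used there.

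The signalling genes were among those with almost no RNA in control ESC. Ptn encodes pleiotrophin, a secreted growth factor that binds the receptor phosphatase encoded by Ptprz1. Ptn (NM_008973, mm9 chr6:36665663-36761361) was at 0.064 and 0.526 FPKM in hairpins #2 and #4, at 404 and 422 FPKM in NeuP replicates 1 and 2, and at 0.020 FPKM in control ESC. Ptprz1 (NM_001081306, mm9 chr6:22825502-23002916) was at 0.208 and 0.513 FPKM in hairpins #2 and #4, at 286 and 380 FPKM in NeuP, and at 0.069 FPKM in control ESC. Ligand and receptor were thus both abundant in NeuP and below 1 FPKM in all 3 ESC libraries. Adcyap1r1 (NM_001025372, mm9 chr6:55401972-55451449), which encodes the receptor for the neuropeptide PACAP, was at 0.068 and 0.294 FPKM in hairpins #2 and #4, at 369 and 121 FPKM in NeuP replicates 1 and 2, and at 0.006 FPKM in control ESC. The NeuP replicates lay further apart in Adcyap1r1, by 3.06-fold, than in any other of the 10 genes.

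The carriers differed in their ESC level. Fabp7 (NM_021272, mm9 chr10:57504729-57508256), the brain lipid-binding protein, was listed at 0 in hairpin #2, at 1.66 FPKM in hairpin #4, at 2454 and 3143 FPKM in NeuP replicates 1 and 2, and at 0 in control ESC. Its mean NeuP level of 2799 ± 488 FPKM (SD, n = 2) ranked 1 among the 24016 transcripts. Slc1a3 (NM_148938, mm9 chr15:8584124-8660807), the glutamate transporter GLAST, was at 2.76 and 4.12 FPKM in hairpins #2 and #4, at 273 and 321 FPKM in NeuP, and at 2.41 FPKM in control ESC. It was therefore low but measurable in ESC, with 256 reads in the control library.

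The intermediate filament genes were the ones with appreciable RNA in ESC. Nes (NM_016701, mm9 chr3:87775015-87784373), which encodes nestin, was at 8.45 and 8.95 FPKM in hairpins #2 and #4, at 60.3 and 124 FPKM in NeuP replicates 1 and 2, and at 6.34 FPKM in control ESC. Vim (NM_011701, mm9 chr2:13495938-13504453), which encodes vimentin and is also made by fibroblasts, was at 116 and 108 FPKM in hairpins #2 and #4, at 913 and 506 FPKM in NeuP replicates 1 and 2, and at 100.2 FPKM in control ESC. NeuP replicate 2 had the higher Nes level and replicate 1 the higher Vim level. The 16 feeder fibroblast markers summed to 24.8 and 22.6 FPKM in hairpins #2 and #4, to 86.0 and 159 FPKM in NeuP, and to 16.0 FPKM in control ESC, where 1 of them was at 0. Among them Lum was at 0 in all 3 ESC libraries. Col1a1 was at 4.77 and 3.24 FPKM in hairpins #2 and #4, against 1.82 FPKM in control ESC, and Thy1 at 2.28 and 2.34 FPKM, against 2.67 FPKM. Of the 15 with at least 1 FPKM in a library, 8 were higher and 2 lower in both hairpins. Of all 13750 such genes 55.0% were higher and 29.5% lower. The part of the feeder markers in the Vim values was not tested.

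The membrane proteins followed the pattern of the signalling genes. Gpm6a (NM_001253754, mm9 chr8:55864787-56146231), a glycoprotein of the proteolipid family, was at 0.195 and 0.358 FPKM in hairpins #2 and #4, at 208 and 156 FPKM in NeuP replicates 1 and 2, and at 0.040 FPKM in control ESC. Its relative Gpm6b (NM_001177962, mm9 chrX:162676875-162826965) was at 0.064 and 0.391 FPKM in hairpins #2 and #4, at 397 and 314 FPKM in NeuP, and at 0.013 FPKM in control ESC. Lrrn1 (NM_008516, mm9 chr6:107479720-107520222), a leucine-rich repeat membrane protein, was at 0.718 and 0.878 FPKM in hairpins #2 and #4, at 318 and 211 FPKM in NeuP, and at 0.147 FPKM in control ESC. For all 3 genes the order of the libraries was the same, NeuP replicate 1 above replicate 2, then hairpin #4, hairpin #2 and control ESC.

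**Figure D1:**
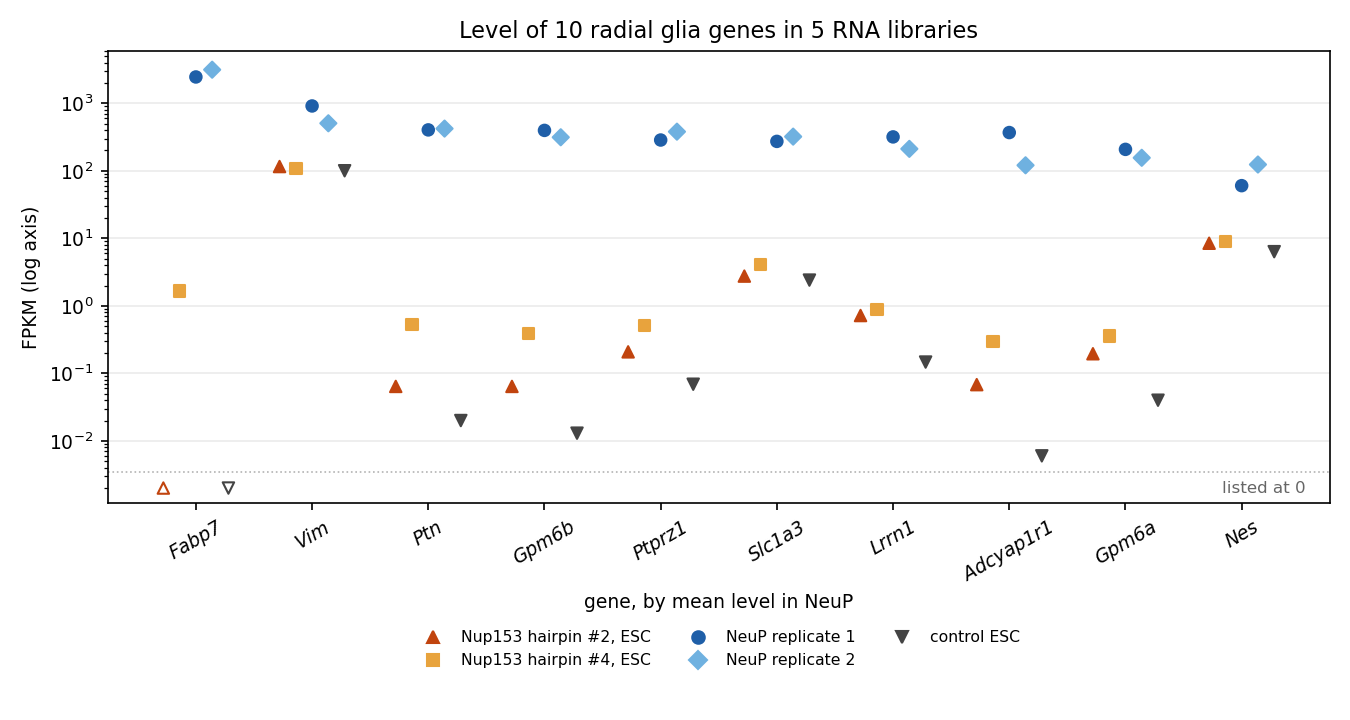
FPKM (log axis) of the 10 genes in each of the 5 RNA libraries, 1 point per library, with hollow points for values listed at 0. The NeuP points lie above all ESC points in every gene, and the ESC level is highest in Vim, at 100.2 to 116 FPKM.

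Ordered by mean NeuP level per transcript length, Fabp7 was followed by Vim (709 ± 288 FPKM), Ptn (413 ± 12.9), Gpm6b (355 ± 58.7), Ptprz1 (333 ± 66.6), Slc1a3 (297 ± 34.0), Lrrn1 (264.5 ± 75.2), Adcyap1r1 (245 ± 175), Gpm6a (182 ± 36.6) and Nes (92.1 ± 45.0), each as mean ± SD with n = 2. The replicate ranges of 5 of the 9 pairs of neighbours in this order overlapped, namely all the steps between Gpm6b and Gpm6a. The replicates did not share a direction: 5 genes were higher in replicate 1, with Adcyap1r1 3.06-fold and Vim 1.81-fold, and 5 in replicate 2, with Nes 2.06-fold and Ptn 1.05-fold. The 8 mature astrocyte markers summed to 2243 FPKM in NeuP replicate 1 and 260 FPKM in replicate 2. Apoe, at 1492 and 89.5 FPKM, made up most of the replicate 1 sum. Apoe was also at 740.7 FPKM in control ESC, so its RNA was not particular to astrocytes here. Sparcl1 was at 462 and 100.5 FPKM in NeuP replicates 1 and 2. Gja1 alone among the 8 was higher in replicate 2, at 24.98 and 38.1 FPKM. The sum had the direction of the Adcyap1r1 and Vim difference, and the part of these markers in that difference was not tested.

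On the log2(FPKM + 1) scale, which understates the change of genes that are low in one group, the difference between NeuP and control ESC ran from 2.75 in Vim and 3.57 in Nes to 8.66 in Ptn and 11.44 in Fabp7. The median of the 10 genes was 7.77, against -0.26 over the 13750 genes with at least 1 FPKM in at least 1 library, all 10 genes among them, 6 through NeuP alone. All 10 were at least 2-fold higher in both NeuP libraries than in control ESC, as were 15.8% of the 13750 genes. Since this contrast chose the genes, nothing is read from that count. Fabp7 had 0 reads in control ESC, and with 3 reads put in place of 0, which is not a strict bound, its difference was 11.23. The lowest NeuP value exceeded the highest ESC value by 4.37-fold in Vim, 6.73-fold in Nes and 66.2-fold in Slc1a3, and by 241-fold to 1477-fold in the other 7.

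In the knockdown libraries, 9 of the 10 genes were higher than control ESC in both hairpins, all but Fabp7, against 55.0% of the 13750 genes. None of the 10 was lower in both, against 29.5% of genes. The differences were small on the log2(FPKM + 1) scale, with a median of 0.33 for the 10 genes and 0.08 for all genes, and limma called none of the 10 (0% of all genes), nor had any of the 10 an unadjusted p under 0.05 in this fit. Other settings gave unadjusted p under 0.05, but no call. With a pseudocount of 0.1 limma gave this for Lrrn1 (0.00745) and Gpm6a (0.0287). With limma's voom on the recovered reads it was Lrrn1 (0.0241) and Gpm6a (0.0366). In limma's fit of the 3 ESC libraries alone it was Lrrn1 (0.00292), Nes (0.0233) and Gpm6a (0.0498). That fit had 3334 of the 13750 genes higher and 1339 lower at an unadjusted p under 0.05. Lrrn1 and Gpm6a were below 1 FPKM in all 3 ESC libraries. They passed the filter through NeuP alone, so nothing is read from their p-values. Leaving out NeuP replicate 1 or replicate 2 left 1 library in NeuP and 1 in control ESC, so nothing is read from the p-values of those fits. The differences of Lrrn1 and Nes stayed at 0.65 and 0.40 there. None was at least 2-fold higher in both hairpins, against 0.305% of genes. With a pseudocount of 0.1 in place of 1, Gpm6a and Lrrn1 were, against 2.82%. With voom on the recovered reads Ptn, Ptprz1, Gpm6a, Gpm6b, Lrrn1 and Adcyap1r1 were, against 5.03%. These 6 reached 1 FPKM in NeuP only and were picked with their low control level known, so nothing is read from these counts. Under quantile normalization 8 of the 10 were above control ESC in both hairpins, all but Fabp7 and Slc1a3, against 42.1% of genes. Hairpins #2 and #4 are set against the same single control library, which also served the NeuP contrast, so a low value in that library alone would place every other library above it.

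The knockdown difference was highest for Fabp7, at 0.71 ± 0.68 (SE), which rested on hairpin #4 alone, with 1.41 in hairpin #4 and 0.00 in hairpin #2. Lrrn1 followed at 0.65 ± 0.32, with 0.58 in hairpin #2 and 0.71 in hairpin #4 (limma, unadjusted p = 0.117, Benjamini-Hochberg adjusted p = 0.874). Lrrn1 had the highest difference of the 10 in hairpin #2 and the highest after Fabp7 in hairpin #4. Nes differed by 0.40 ± 0.50, Slc1a3 by 0.36 ± 0.29, Ptprz1 by 0.34 ± 0.29, Ptn by 0.32 ± 0.29, Gpm6a by 0.29 ± 0.26, Gpm6b by 0.26 ± 0.29, Adcyap1r1 by 0.22 ± 0.75 and Vim by 0.16 ± 0.43. Among these 8 the adjusted p was 0.993 for Slc1a3 and 1 for the rest, by limma with Benjamini-Hochberg adjustment. Of all 13750 genes, limma called 0 at an adjusted p under 0.05, with a smallest adjusted p of 0.825, while 617 genes (4.49%) were higher and 197 (1.43%) lower at an unadjusted p under 0.05. With limma's voom on the recovered reads 0 genes were called too, and 413 were higher and 85 lower at an unadjusted p under 0.05. The excess of higher genes at that unadjusted p turned round under quantile normalization, with 246 higher and 341 lower, and the fit of the 3 ESC libraries alone gave 3334 and 1339, again with 0 called. The fit of all 5 libraries had 2 residual degrees of freedom and no control replicate. Its SE pools the spread between hairpins with that between NeuP replicates. Nes differed from control ESC by 0.36 and 0.44 in hairpins #2 and #4, and by 3.06 and 4.09 in NeuP replicates 1 and 2. Adcyap1r1 differed by 0.09 and 0.36, and by 8.52 and 6.92. The SE of these genes thus reflected NeuP more than the hairpins. In Fabp7, Ptn, Slc1a3 and Gpm6b the hairpins lay further apart than the NeuP replicates.

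**Figure D2:**
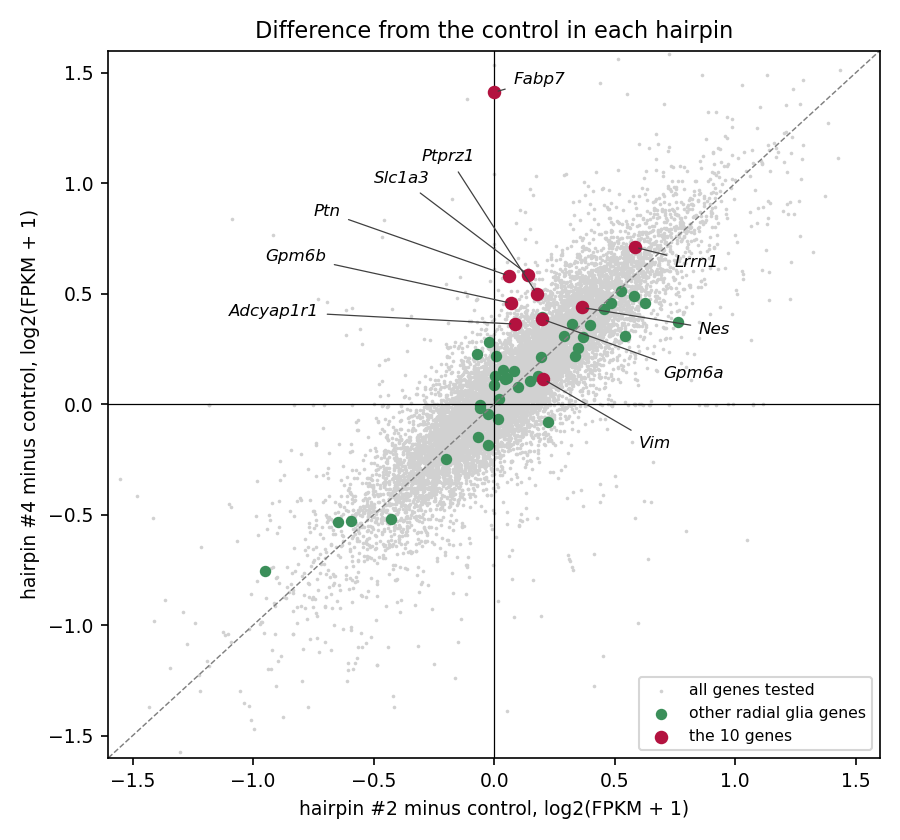
Difference from control ESC in log2(FPKM + 1) for hairpin #2 (horizontal) and hairpin #4 (vertical), with 1 point per gene: the 10 genes in red, the other radial glia genes in green and all genes tested in grey, of which 20 lie beyond the plotted range of 1.6. Red points lie above the dashed line of equal change in 9 of 10 genes, and Fabp7 lies at 0.00 for hairpin #2 and 1.41 for hairpin #4.

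Hairpin #4 exceeded hairpin #2 in 9 of the 10 genes, all but Vim, against 53.2% of all genes tested. The median difference from control ESC was 0.16 in hairpin #2 and 0.48 in hairpin #4, against 0.08 and 0.09 over all genes. In reads, the 7 genes below 0.2 FPKM in control ESC summed to 177 reads in hairpin #2 and 351 in hairpin #4, against 34 in control ESC. As ratios of depth-scaled reads, which compare these libraries and not the conditions, Lrrn1 was 4.89-fold (95% interval 2.76 to 9.32) and 5.97-fold (3.37 to 11.4) higher in hairpins #2 and #4 than in control ESC. Ptprz1 was 3.02-fold (1.65 to 5.91) and 7.47-fold (4.26 to 14.1) higher in hairpins #2 and #4. Both rested on 14 reads in control ESC, and the exact intervals cover counting error only. The remaining low genes had 3 control reads or fewer: Gpm6a was 4.89-fold (1.43 to 25.9) and 8.96-fold (2.76 to 46.1) higher in hairpins #2 and #4, and the intervals of Ptn and Gpm6b in hairpin #2, 0.322 to 160 and 0.593 to 225, included 1. In hairpin #4 Ptn was 26.9-fold (4.43 to 1.1e+03) and Gpm6b 29.9-fold (4.97 to 1.22e+03) higher than in control ESC, each against 1 control read. Adcyap1r1, also with 1 control read, was 10.6-fold (1.59 to 450) and 45.8-fold (7.82 to 1.85e+03) higher in hairpins #2 and #4. Fabp7, with 32 reads in hairpin #4 and 0 in control ESC, was 10.6-fold higher in hairpin #4 with 3 control reads put in place of 0, which is not a strict bound. Between the hairpins, hairpin #4 exceeded hairpin #2 by 8.25-fold (2.88 to 32.5) in Ptn, 6.11-fold (2.50 to 18.0) in Gpm6b and 4.33-fold (2.30 to 8.73) in Adcyap1r1. It also did so in Ptprz1 by 2.47-fold (1.75 to 3.51) and in Slc1a3 by 1.49-fold (1.30 to 1.72). The interval included 1 for Gpm6a (1.83, 0.974 to 3.54), Lrrn1 (1.22, 0.893 to 1.67) and Nes (1.06, 0.985 to 1.14), and lay below 1 for Vim (0.938, 0.904 to 0.973). The ratios of the abundant genes were nearer to 1, with Vim 1.15-fold (1.11 to 1.20) and 1.08-fold (1.04 to 1.13) and Nes 1.33-fold (1.23 to 1.44) and 1.41-fold (1.30 to 1.53) higher in hairpins #2 and #4.

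**Figure D3:**
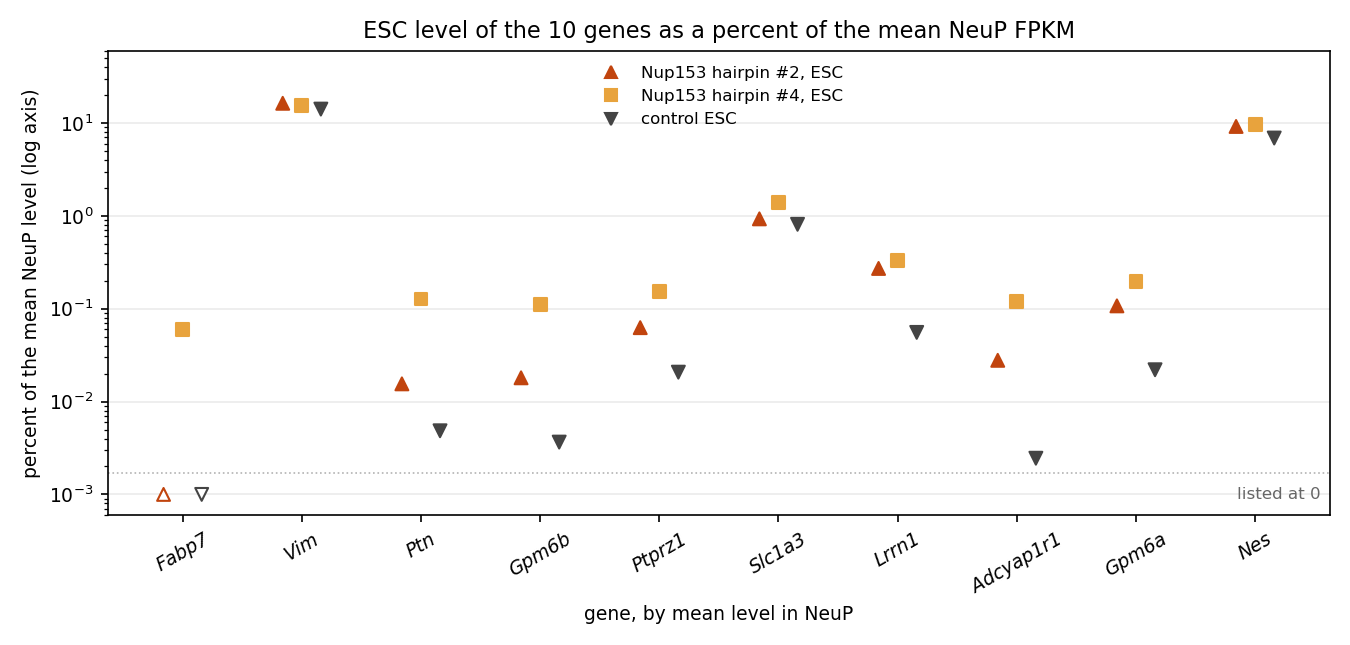
ESC level of each gene as a percent of its mean NeuP FPKM (log axis), for hairpin #2, hairpin #4 and control ESC, with hollow points for values listed at 0. Vim and Nes stand highest, and in the 7 genes below 0.2 FPKM in control ESC the hairpin #4 points lie between 0.0593% and 0.332%.

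Set against their level in NeuP, the 7 low genes remained nearly silent in the knockdown. The median was 0.0278% of the mean NeuP level in hairpin #2 and 0.127% in hairpin #4, against 0.00485% in control ESC. Between the hairpins, hairpin #4 had the higher share in every one of the 7. The 14 neuron markers summed to 90.4 and 97.5 FPKM in hairpins #2 and #4, against 94.7 FPKM in control ESC, but without Stmn2, at 55.7 and 63.6 FPKM against 67.6 FPKM, the other 13 summed to 34.7 and 33.9 FPKM, against 27.2 FPKM. Of the 14, 13 had at least 1 FPKM in a library, and 8 of these were higher and 2 lower in both hairpins. Over all 13750 such genes 55.0% were higher and 29.5% lower, and nothing is read from the count. In the same order, the 9 oligodendrocyte precursor markers summed to 9.85 and 11.8 FPKM against 7.66 FPKM, and the 10 pluripotency genes to 1630 and 1829 FPKM against 1625 FPKM. Of the defining markers, Dcx of young neurons was at 0.018 and 0.101 FPKM in hairpins #2 and #4, against 0.022 FPKM in control ESC, and Olig2 at 0 and 0.21 FPKM, against 0.016 FPKM. Tubb3, another neuron marker, was at 12.2 and 12.7 FPKM, against 8.29 FPKM. The part of a few differentiating cells in the values of the 7 genes was not tested.

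Of 42 other radial glia genes, 40 had at least 1 FPKM in a library. In the fit of all 5 libraries none was called in the knockdown by limma at an adjusted p under 0.05 or had an unadjusted p under 0.05; 25 were higher and 10 lower in both hairpins, shares near the 55.0% and 29.5% of all genes tested, and the median difference was 0.11, against 0.08 over all genes. The highest differences were those of the transcription factors Gli3 (0.57), Lhx2 (0.54) and Sox2 (0.54), and the lowest were those of Pla2g7 (-0.85), the metallothionein Mt3 (-0.59) and the glycolytic enzyme Aldoc (-0.56). In NeuP, limma called 23 of the 40 higher and 2 lower than control ESC, and 15 were not called, with a median difference of 2.72. Of the 40, 14 reached 1 FPKM in NeuP only and so entered the test through the group where they are high, 11 of them among the 23, and the list was chosen with these data known; nothing is read from its count. Over all genes 18.3% (2516) were called higher and 24.9% (3420) lower; these counts were 319 and 1508 without hairpin #2 and 318 and 1504 without hairpin #4. The proteoglycan Bcan, the endothelin receptor Ednrb and the proteoglycan Ncan differed most, by 7.27, 7.03 and 6.76. Tfap2c fell by 4.57 in NeuP and Pdpn fell by 1.75, and the next lowest, Pla2g7, was not called at -0.44. Over the 5 libraries, the genes outside the 10 whose log2(FPKM + 1) profile lay nearest to the mean profile of the 10 included Bcan, at a Euclidean distance of 1.11, Mgst1 (1.51), Ttyh1 (1.52) and Sepp1 (1.53). Singly, Olig2 was nearest to Ptn, Ptprz1 and Gpm6b, at 1.25, 0.838 and 1.03, and Olig1 to Gpm6a and Adcyap1r1, at 0.556 and 0.429. Bcan was nearest to Lrrn1 at 0.982 and to Fabp7 at 5.01, so no gene lay close to Fabp7. Nes was nearest to Tspan6 (0.675), Vim to Scd2 (1.01) and Slc1a3 to Sepp1 (0.924).

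The peak lists were compared with the starts of the 10 transcripts in mm9, counting a peak that reached within 2 kb of the start. Ring1B, the ubiquitin ligase of Polycomb repressive complex 1, had a peak at 8 of the 10 starts in hairpin #2, against 24.0% of all transcripts, at 2 in hairpin #4, against 9.24%, and at 1 in control ESC, against 8.10%. The Ring1B libraries differed in depth in the same order, with 30.8 M tags in hairpin #2, 9.95 M in hairpin #4 and 4.99 M in control ESC, and the part of depth in these counts cannot be told apart from that of the hairpin. Hairpin #2 lacked a peak at Fabp7 and Ptn, hairpin #4 had peaks at Nes and Adcyap1r1 only, and control ESC at Vim only. In NeuP, at 33.2 M tags, Ring1B had a peak at 7 of the 10 starts, Fabp7, Ptn, Nes, Vim, Slc1a3, Gpm6b and Lrrn1, against 10.4% of all transcripts. Ptprz1, Gpm6a and Adcyap1r1 had none. All 10 genes were expressed in NeuP and were chosen with that known, so nothing is read from the expression of the 7. Among the 42 other radial glia genes described above, the Ring1B shares were 66.7% in hairpin #2, 40.5% in hairpin #4, 31.0% in control ESC and 52.4% in NeuP. Among the 13750 genes with at least 1 FPKM in a library they were 31.4%, 11.0%, 10.2% and 15.0%. Such peaks were thus not particular to the 10 genes. With 1 list per cell state no difference between lists could be tested.

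Cbx7, a Polycomb subunit that reads methylated histone H3, was mapped in control ESC only, at 22.5 M tags. It had a peak at 47.6% of the 42 other radial glia genes and at 13.0% of the 13750 genes. Of the 10 starts 6 had one, against 13.2% of all transcripts: Ptn, Ptprz1, Slc1a3, Gpm6b, Lrrn1 and Adcyap1r1. Ring1B had no control ESC peak at any of these 6 (4.99 M tags), while in hairpin #2 it had one at 5 of them, all but Ptn. All 4 genes with a CpG-rich window, Ptprz1, Nes, Gpm6b and Lrrn1, had a Ring1B peak in hairpin #2, as did 4 of the other 6. In the Nup153 DamID list 3 starts had a peak, those of Nes, Vim and Slc1a3, against 5.91% of all transcripts, and in the Oct4 DamID list 2 had one, Vim and Slc1a3, against 2.80%. For Nup153 and Oct4 DamID the shares were 8.91% and 3.94% among the 13750 genes, and 11.9% and 9.52% among the 42 other radial glia genes. Of the 10 genes, Nes, Vim and Slc1a3 are the ones with the highest RNA in control ESC. Oct4 ChIP had a peak at 0 of the 10 starts in hairpin #2 and 0 in control ESC, against 0.712% and 0.733% of all transcripts.

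**Figure D4:**
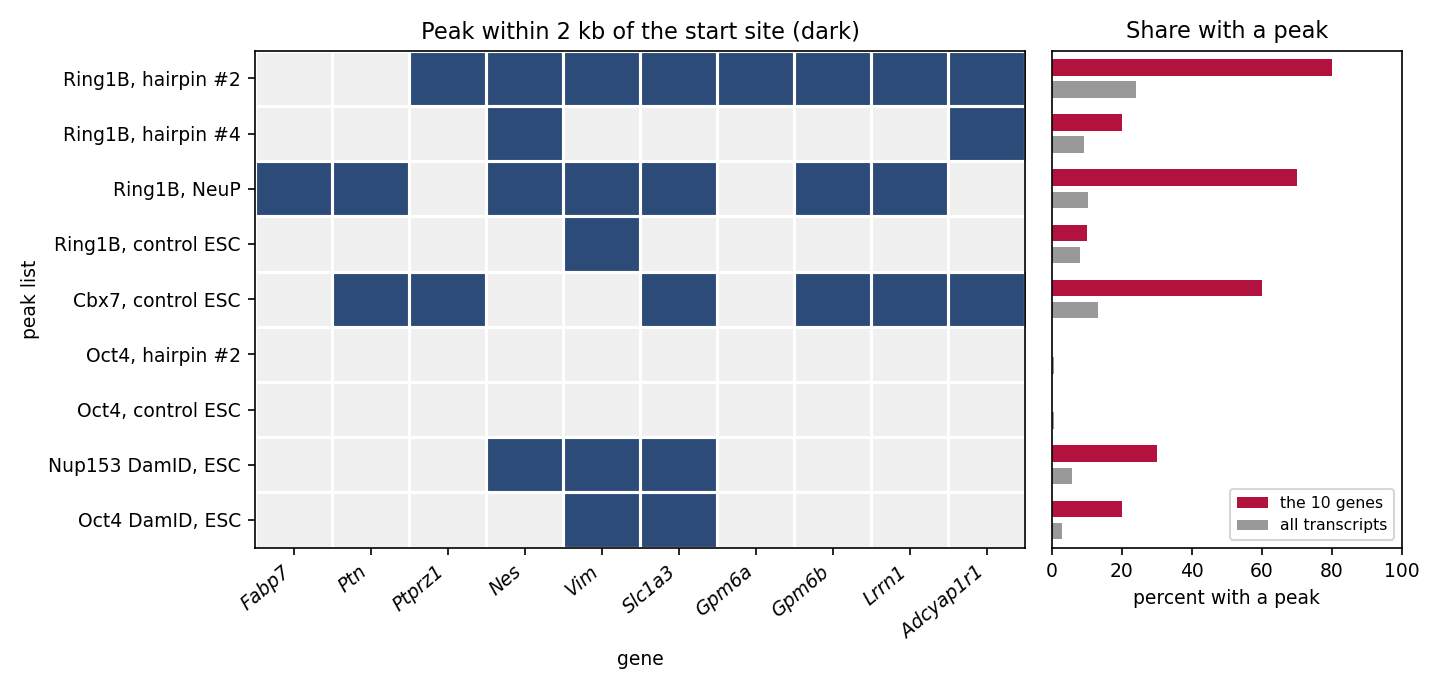
Left, presence (dark) of a peak within 2 kb of the start of each of the 10 genes in each of the 9 peak lists; right, the percent of the 10 genes (red) and of all 24016 transcripts (grey) with such a peak. Ring1B in hairpin #2 marks 8 starts, Ring1B in NeuP 7 and Cbx7 in control ESC 6.

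At single genes the peaks took different places. Fabp7, whose printed window holds 6 CpG, had a peak in 1 of the 9 lists, Ring1B in NeuP, which was 2300 bases wide and ran from -1896 to 403, in bases from the start with minus for upstream. Its nearest ESC Ring1B peaks were 152, 248 and 182 kb away in hairpin #2, hairpin #4 and control ESC. At Ptprz1, Ring1B in hairpin #2 ran from -638 to 861 bases, over the CpG-rich window printed above, and Cbx7 in control ESC from 294 to 954, downstream of that window. Adcyap1r1 had Ring1B peaks in hairpin #2 and hairpin #4 and the Cbx7 peak in control ESC, from 130 to 1443, 456 to 1259 and 251 to 1470 bases after the start. These Polycomb peaks lay just inside the gene. At Slc1a3, with 3 CpG in its window, the Cbx7 peak reached 2558 bases into the gene, and the Nup153 and Oct4 DamID peaks spanned the start. Vim was the gene with a Ring1B peak at its start in control ESC, from -409 to 91 bases.

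Nes had peaks of 8 of the 9 lists within 5 kb of its start, more than any other of the 10 genes, and most of them lay inside the gene. Between 1884 and 5094 bases after its start lay a Nup153 DamID peak, and within that stretch were peaks of Ring1B in hairpin #2, hairpin #4, NeuP and control ESC, of Cbx7, and of Oct4 ChIP at 3297 to 3471 bases in hairpin #2 and 3339 to 3515 in control ESC. An enhancer active in neural stem cells is known in an intron of Nes, and whether these peaks lie on it was not tested. The ninth list, Oct4 DamID, had its nearest peak 75.7 kb away. Across whole genes with 2 kb upstream, Ring1B in NeuP had a peak in 10 of 10, against 20.8% of all transcripts, and in 8 of 10 in hairpin #2, against 31.6%, and 3 of 10 in hairpin #4, against 19.6%. In control ESC it had one in 3 of 10, against 18.7%. Among the 42 other radial glia genes the shares were 73.8% in NeuP, 78.6% in hairpin #2, 45.2% in hairpin #4 and 50% in control ESC. The 10 genes had a median span of 63.1 kb, against 13.7 kb over all transcripts, though Fabp7 (3.53 kb), Vim (8.52 kb) and Nes (9.36 kb) were shorter than that. The part of length in these counts was not tested.

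**Figure D5:**
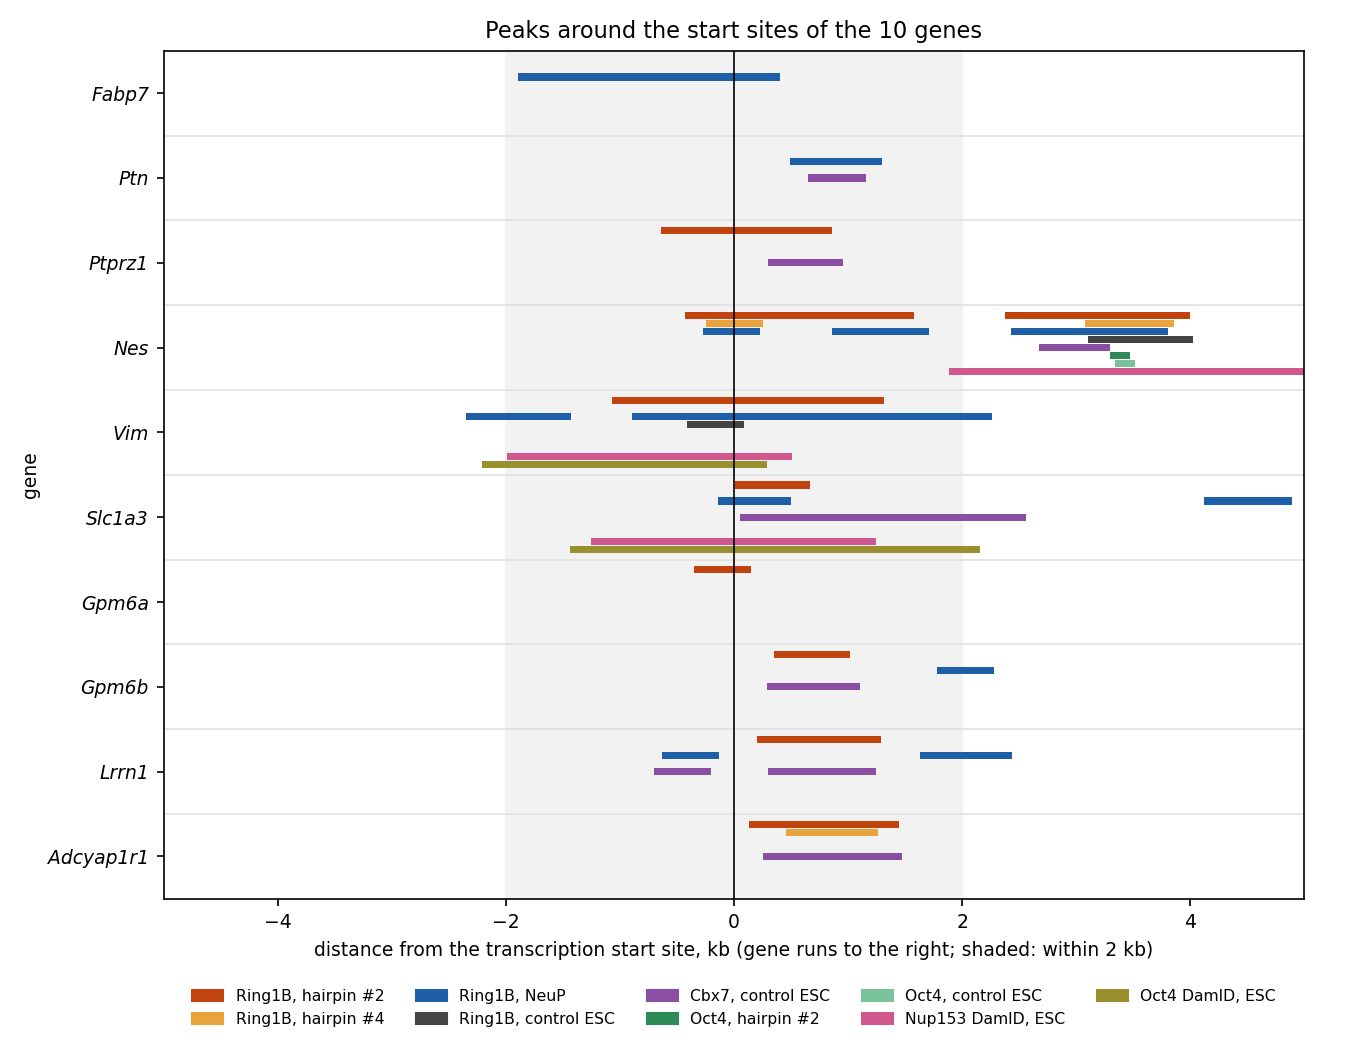
Peaks of the 9 lists within 5 kb of the start of each of the 10 genes, drawn to scale by distance in kb with each gene running to the right and the 2 kb window shaded. Fabp7 has 1 peak, in NeuP, and Nes has a group of peaks from 8 lists inside the gene.

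The 10 genes lay on 7 chromosomes, with 4 of them, Ptn, Ptprz1, Lrrn1 and Adcyap1r1, on chromosome 6, which held 5.28% of all transcripts. The starts of Ptprz1 and Ptn, receptor and ligand, were 13.9 Mb apart, and no other transcript of the table started within 2 kb of any of the 10.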

How the data were processed

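RNA values were deposited by the authors as FPKM, 1 transcript per gene symbol. Per the submitters' processing notes, CASAVA 1.8.2, STAR 2.2.0c, Bowtie2 2.1.0, HOMER 4.6 and edgeR were used, with the mm9 build; per the labels, the RNA was polyadenylated and the libraries strand-specific. The deposited FPKM values below 30 reads sat on whole-read steps, within 0.1 of a read, from which read counts and depths were recovered. Differences were fitted with limma 3.58.1 in its trend form under R 4.3.3, on log2(FPKM + 1) values, with all 5 libraries and 3 groups in 1 fit, for genes of at least 1 FPKM in at least 1 library, two-sided, with Benjamini-Hochberg adjustment over all 13750. The code was tested on simulated data. Ratios carry exact conditional binomial 95% intervals.

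The authors deposited 9 peak lists as positions, with no peak height, and other columns hold no measurement. Per the file headers, ChIP lists came from HOMER, each from 1 library against IgG of ESC, NeuP included; the way DamID replicates and GFP were combined was not found in headers or labels. Peaks were joined to starts in Python 3.11.15 (pandas 2.3.3, scipy 1.17.1). The members, lists and naming rule (all 10 genes, the 3 highest and 3 lowest other radial glia genes per contrast, the nearest profiles) were chosen with earlier results of these data known. Of the nearest profiles, 1 gene that the rule names is not reported here. Alternatives changed the pseudocount, filter, scaling, libraries and peak window.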

Additional observations from a re-analysis of the deposited data

How the results depend on the processing

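For the 10 genes in the knockdown, 102 of 104 alternative values kept direction and side of the threshold, 0 reversed, and Fabp7 was at 0.00 without hairpin #4. Most of these settings could not reverse a direction. Changing the filter or the NeuP libraries leaves the hairpin difference as it is. A changed pseudocount or an omitted hairpin cannot reverse genes at or above control in both hairpins. Only quantile normalization and voom could have reversed a direction, and neither did. Nes was called (adjusted p = 0.0389, limma with Benjamini-Hochberg) when only the 3 ESC libraries were fitted with the filter set on those. This alternative was added after seeing the data. That fit called 1932 genes higher and 778 lower, and the fit with no filter on low values 55 higher and 175 lower, against 0 otherwise. The members' knockdown median was 1.35 with a pseudocount of 0.1, 0.12 with one of 5, 0.17 under quantile normalization and 2.45 with voom. With 0.1 and with voom, 2 and 6 members were 2-fold higher in both hairpins, against 2.82% and 5.03% of genes. All 6, the 2 among them, passed the filter through NeuP alone, so nothing is read from these counts. Under quantile normalization the NeuP median of all genes was -0.06. The members' NeuP median was 10.63 and 5.56 with pseudocounts of 0.1 and 5, and 12.05 with voom. Leaving out 1 library moved the NeuP calls between 318 and 4692 higher and 1504 and 6629 lower, with hairpin #2 (319 and 1508) or hairpin #4 (318 and 1504) omitted at the low end and NeuP replicate 1 (4692 and 5927) or 2 (4616 and 6629) omitted at the high end. Within 5 kb, Ring1B in control ESC had a peak at 2 members, Oct4 in hairpin #2 at 1 and Oct4 in control ESC at 1; over the gene body the counts were 3, 1 and 2. The cause of these moves was not tested. A stricter peak threshold was not run, as the lists give no heights. No paired analysis was possible because the control has 1 library and the groups share fewer than 2 replicate numbers. With 1 to 3 control reads in 4 of the low genes, depth limits their folds.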

Other observations

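A wider set, defined after seeing the values, was made of all 16 genes above 100 FPKM on average in NeuP and below 0.2 FPKM in control ESC, of which 7 are among the 10 radial glia genes. The low control level was part of the definition and favours hairpin values above control. The definition did not use the order of the hairpins. That order was already known for the 7, so the set is no independent check of it. All 16 were higher in hairpin #4 than in hairpin #2, against 53.2% of all genes tested. The median share of the mean NeuP level was 0.0452% in hairpin #2 and 0.149% in hairpin #4, against 0.0129% in control ESC, and the highest share in hairpin #4 was 0.455%. No test was made on this set.

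Inside the genes, the number of Ring1B peaks in NeuP differed, counted over the gene with 2 kb upstream. Gpm6b held 8, Ptn 5, Slc1a3 4, Lrrn1 4, Nes 3, Gpm6a 2 and Vim 2, and Fabp7, Ptprz1 and Adcyap1r1 held 1 each. No such count was made over all transcripts. The genes ran from 3.53 kb in Fabp7 to 281 kb in Gpm6a, and the part of length was not tested.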
